A study of Mus musculus with 9 samples.

Results

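The RAS-ERK feedback genes are 9 genes whose products restrain the signalling cascade below KIT, the stem cell factor receptor. They were taken by name from the deposited table: the Sprouty genes Spry1, Spry2 and Spry4, the Spred genes Spred1 and Spred2, the MAP kinase phosphatase genes Dusp4, Dusp5 and Dusp6, and the neurofibromin gene Nf1. Each matched 1 of the 43629 Ensembl genes of the table. The table holds RNA-seq of c-KIT+ bone marrow cells of C57BL/6 mice in 3 groups with 3 libraries each, and all mice had been given pIpC, a synthetic double-stranded RNA. Mice of the first group had both Chd7 alleles floxed (Chd7f/f; Chd7 encodes a nucleosome remodeller), together with Mx1-Cre and Cbfb+/56M (KI_Chd7del). The second group had Mx1-Cre with Cbfb+/56M, and its label names no floxed Chd7 (KI). The third was labelled wild type (WT), and its label names no Cre. The Cbfb+/56M allele lets Cre turn on Cbfb-MYH11, the fusion found in inv(16) leukaemia in humans, and Mx1-Cre is switched on by the interferon that pIpC induces, in blood cells and in some other tissues. The labels used here give no age and do not say whether each library is from its own mouse, and the spread behind each p-value may therefore be partly technical.

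Receptor tyrosine kinases such as KIT recruit adaptors and exchange factors that load RAS with GTP, and RAS then starts the kinase chain of RAF, MEK and ERK. Active ERK induces several of its own inhibitors, which closes a negative feedback loop. Sprouty proteins act near the receptor and at RAF, Spred proteins bring neurofibromin to the membrane, neurofibromin speeds the hydrolysis of GTP on RAS, and the dual-specificity phosphatases remove the activating phosphates from ERK. In blood, loss of NF1 is a cause of juvenile myelomonocytic leukaemia, and the transcripts of DUSP6, SPRY2 and SPRY4 are commonly read as a measure of ERK output.

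Values are read numbers scaled per library by the authors, called normalised values here. They summed to between 37538447 and 38076394 in KI_Chd7del, 37716763 and 39002839 in KI, and 43222301 and 46159426 in WT. Of all genes, 15997 reached 10 in 3 or more libraries and were tested with limma on log2(value + 1), and all 9 feedback genes were among them. Chd7 stood at 1862, 1794 and 1921 in KI_Chd7del, 1979, 2934 and 2009 in KI, and 3471, 3745 and 3982 in WT. Chd7 fell in KI against WT (log2 -0.72, adjusted p = 0.00154), whereas its difference of -0.29 in KI_Chd7del against KI did not pass (adjusted p = 0.121). These gene-level values therefore do not check the deletion that the name KI_Chd7del stands for, nor resolve a single floxed exon. Myh11 lay between 164 and 187 in KI_Chd7del, 176 and 219 in KI, and 5 and 9 in WT. Kit, which encodes the selected surface receptor, was present in each library. Transcripts of maturing neutrophils were present too, and 12 late neutrophil markers took 3.59% to 4.63% of the total in KI_Chd7del, 0.442% to 1.99% in KI and 10.4% to 12.3% in WT. In such bulk samples, fewer cells of a type and less RNA per cell cannot be told apart.

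The feedback genes did not move as a block with the fusion. In KI against WT, Spry1, Spred1, Dusp4 and Dusp5 rose, Spry2, Spry4, Spred2 and Dusp6 fell, and Nf1 did not pass the test. Thus 8 of 9 passed, 4 in each direction, where 58.9% of all tested genes passed, 31.8% higher and 27.2% lower. Between KI and WT, 7 of 9 did not overlap, beside 67.6% of all genes. Their median absolute log2 fold change was 0.93, beside 0.44 over all tested genes. In KI_Chd7del against KI, 4 of 9 passed, where 40.4% of all genes did, 17.5% higher and 22.9% lower, and 4 did not overlap, beside 52% of all genes. Spry2 and Dusp6 rose there, and Spry1 and Spred1 fell. The comparisons share libraries, so opposite signs in KI_Chd7del against KI and in KI against WT are no separate result. The median absolute log2 fold change was 0.44, beside 0.29 over all genes. In KI_Chd7del against WT, 6 of 9 passed, where 48.4% of all genes did (24% higher and 24.3% lower), and 6 did not overlap, beside 57.6%. Dusp4 and Dusp5 were higher there, and Spry2, Spry4, Spred2 and Dusp6 lower. The count of 4 in KI_Chd7del against KI was near its background share, and it was 2 without KI library 1 or 3 or without KI_Chd7del library 3. The count of 6 in KI_Chd7del against WT was 3 without KI_Chd7del library 2 or WT library 2.

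**Figure D1:**
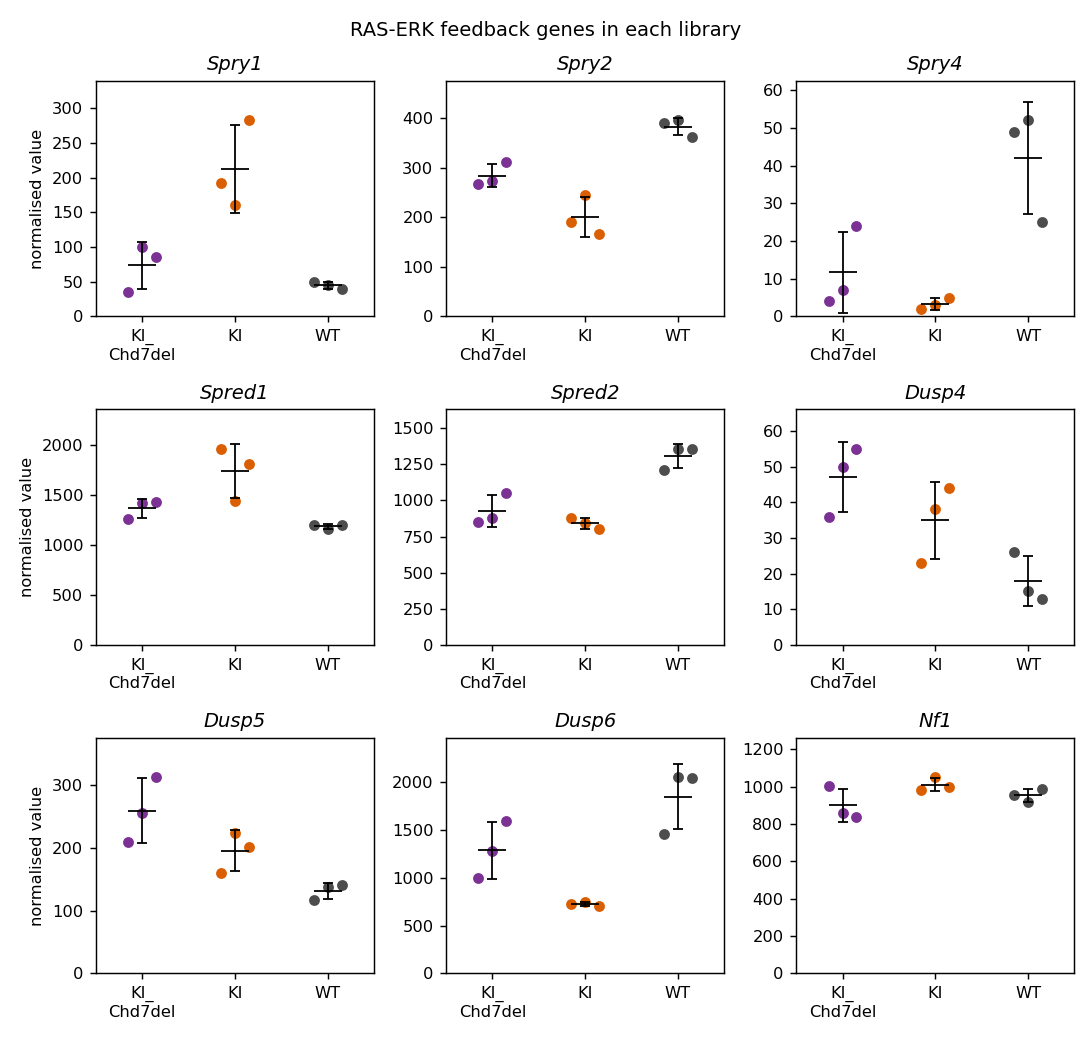
Normalised value (y axis, from 0) of the 9 feedback genes in each library of KI_Chd7del, KI and WT. Points are libraries 1 to 3 from left to right, and black marks are the mean ± SD of 3 libraries. Dusp6, for example, lay between 709 and 752 in KI, under all libraries of the other 2 groups, whereas Nf1 lay between 840 and 1051 in all 9.

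The Sprouty genes went in opposite directions. Spry1 (ENSMUSG00000037211, chromosome 3, 37639947 to 37644598, GRCm38) encodes an adaptor-binding inhibitor of receptor tyrosine kinase signalling. Its values were 35, 100 and 86 in KI_Chd7del, 193, 161 and 283 in KI, and 50, 45 and 40 in WT. The KI libraries were above all others, and KI_Chd7del library 1 was below every WT library. Spry1 rose by 2.18 on the log2 scale in KI against WT, with an SE of 0.37 and an adjusted p of 0.000854. It fell in KI_Chd7del against KI (-1.61, SE 0.37, adjusted p = 0.00918). Against WT, KI_Chd7del differed by 0.57 (SE 0.37, adjusted p = 0.235), which did not pass. Without KI_Chd7del library 1 that difference was 1.03 and passed (adjusted p = 0.01, range 0.01 to 0.579 over 22 alternatives, which were other filters, scalings, pseudocounts and fits and each library left out). An opposite-strand annotation, Gm42922, shares 710 exonic bases with Spry1 and was not analysed here. Whether the authors' counting used strand is not given in the sources used here, so reads of the pair cannot be told apart.

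Spry2 (ENSMUSG00000022114, chromosome 14, 105891947 to 105896819), a relative of Spry1 that also binds the ubiquitin ligase CBL, showed the converse pattern. It had 268, 273 and 311 in KI_Chd7del, 190, 245 and 167 in KI, and 391, 396 and 363 in WT. None of the 3 groups overlapped, with KI lowest and WT highest. Spry2 fell in KI against WT (log2 -0.95, SE 0.14, adjusted p = 0.000394) and rose in KI_Chd7del against KI (0.51, SE 0.14, adjusted p = 0.02). The second call was lost without KI library 1 (adjusted p = 0.0608), KI library 3 (0.0692) or KI_Chd7del library 3 (0.0678), and in a fit of only these 2 groups (0.052), with a range of 0.00325 to 0.0692 over 22 alternatives. In KI_Chd7del against WT, Spry2 fell by 0.43 on the log2 scale (SE 0.14, adjusted p = 0.0329). That call was lost without KI_Chd7del library 1 (0.0793) or 2 (0.0888) and without WT library 1 (0.0799), 2 (0.0942) or 3 (0.0585). It was also lost with upper-quartile factors (0.0624), scaled to the column total without late neutrophil genes (-0.31, 0.116) and to the whole column total (-0.19, 0.308), so in 8 of 22 alternatives, over a range of 0.00771 to 0.308.

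The promoters of Spry1 and Spry2 are shown because these genes moved in opposite directions. They are the 250 bases before the start in RefSeq (GRCm38.p6), at chr3:37639697-37639946 on the plus strand for Spry1 and chr14:105896820-105897069 on the minus strand for Spry2. Capitals mark GGGCGG, a GC box, and CCAAT, on either strand (ATTGG is CCAAT read on the other strand).
Spry1: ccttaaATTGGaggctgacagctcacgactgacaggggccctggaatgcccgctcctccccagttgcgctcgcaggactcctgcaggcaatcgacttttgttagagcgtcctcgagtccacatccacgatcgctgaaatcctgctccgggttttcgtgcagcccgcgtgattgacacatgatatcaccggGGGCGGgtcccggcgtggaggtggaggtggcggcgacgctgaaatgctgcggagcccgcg
Spry2: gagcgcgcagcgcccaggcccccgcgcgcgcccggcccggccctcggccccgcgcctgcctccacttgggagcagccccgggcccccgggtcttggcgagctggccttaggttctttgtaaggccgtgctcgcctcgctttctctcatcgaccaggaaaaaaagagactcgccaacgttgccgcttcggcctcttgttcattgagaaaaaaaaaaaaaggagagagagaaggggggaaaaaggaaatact
Spry1 held 1 match of each, and Spry2 held neither. Over 32851 promoters of this length, 32.7% held GGGCGG and 33.8% held CCAAT.

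Spry4 (ENSMUSG00000024427, chromosome 18, 38586247 to 38601415), a further Sprouty inhibitor that is widely used as an ERK target gene, was the least abundant of the 9 in KI and KI_Chd7del. It had 4, 7 and 24 in KI_Chd7del, 2, 3 and 5 in KI, and 49, 52 and 25 in WT. All WT libraries were above all others, by 1 between WT library 3 and KI_Chd7del library 3. Summed over 3 libraries, Spry4 had 35 in KI_Chd7del, 10 in KI and 126 in WT, so counting limits its precision. It fell in KI against WT (log2 -3.30, SE 0.58, adjusted p = 0.00101), a size that depends on the pseudocount, with -1.55 at a pseudocount of 16. In KI_Chd7del against WT it fell by 2.04 on the log2 scale (SE 0.58, adjusted p = 0.0178), or by 1.10 with a pseudocount of 16. That call was lost without KI_Chd7del library 1 (0.0528) or 2 (0.0571) and without WT library 1 (0.0554) or 2 (0.0632), over a range of 0.00223 to 0.0632. The difference of KI_Chd7del from KI was 1.27 (SE 0.58, adjusted p = 0.112), which did not pass, but passed without KI_Chd7del library 1 (1.77, adjusted p = 0.0379, range 0.0379 to 0.337).

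Within a library the scaling cancels out of a ratio of Sprouty transcripts. Such a ratio still rests on the annotated exon lengths, and reads of Gm42922 may be included in Spry1. Per kilobase of exon, Spry1 over Spry2 was 0.0938, 0.263 and 0.199 in KI_Chd7del, 0.73, 0.472 and 1.22 in KI, and 0.0918, 0.0816 and 0.0791 in WT. Spry1 made up 8.52% to 20.6% of the summed Sprouty level per kilobase in KI_Chd7del, 31.9% to 54.6% in KI and 7.13% to 8.01% in WT. Among Spry1, Spry2 and Spry4, Spry2 had the highest level per kilobase in each library except KI library 3, where it held 44.8%. The groups did not overlap in the ratio.

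**Figure D2:**
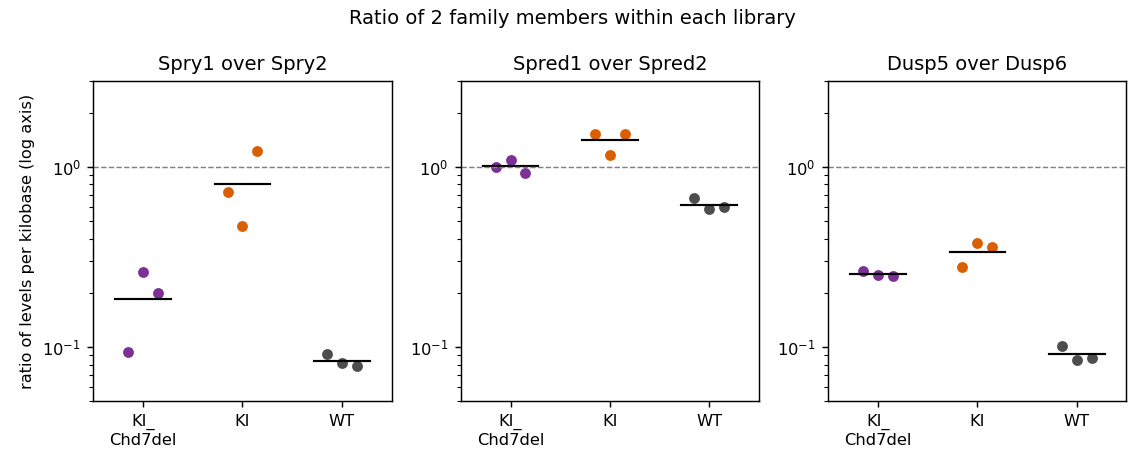
Ratio of the level per kilobase of exon of 2 genes of the same family in each library (y axis, log scale), for Spry1 over Spry2, Spred1 over Spred2 and Dusp5 over Dusp6. Points are libraries, bars the mean of 3, and the dashed line marks equal levels. In all 3 panels the KI libraries are the highest and the WT libraries the lowest.

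The Spred genes encode Sprouty-related proteins with an EVH1 domain, through which they bind neurofibromin. Spred1 (ENSMUSG00000027351, chromosome 2, 117121374 to 117182279), the gene mutated in Legius syndrome in humans, had 1256, 1417 and 1425 in KI_Chd7del, 1958, 1435 and 1805 in KI, and 1193, 1158 and 1198 in WT. The groups did not overlap, although KI library 2 exceeded the highest KI_Chd7del library by only 10. Spred1 rose in KI against WT (log2 0.54, SE 0.11, adjusted p = 0.00201) and fell in KI_Chd7del against KI (-0.33, SE 0.11, adjusted p = 0.0346). The fall was lost in 13 of 22 alternatives, with adjusted p between 0.00199 and 0.115. Among these were the fits without KI library 1 (0.115) or 3 (0.103), without KI_Chd7del library 1 (0.0936), 2 (0.059) or 3 (0.0547), and without WT library 2 (0.051) or 3 (0.0513). Against WT, KI_Chd7del differed by 0.21 (SE 0.11, adjusted p = 0.143), which passed in 4 of 22 alternatives (range 0.00655 to 0.292). These were the fits without KI library 2 (0.0306), of only these 2 groups (0.0425), scaled to the column total (0.45, 0.00655) and scaled to that total without late neutrophil genes (0.33, 0.0244).

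Spred2 (ENSMUSG00000045671, chromosome 11, 19924375 to 20024026), the close relative of Spred1, had 852, 877 and 1053 in KI_Chd7del, 878, 840 and 805 in KI, and 1210, 1357 and 1357 in WT. All 6 libraries with the fusion allele lay below WT, and KI_Chd7del and KI overlapped. Spred2 fell in KI against WT (log2 -0.64, SE 0.09, adjusted p = 0.000269). It fell in KI_Chd7del against WT too (-0.50, SE 0.09, adjusted p = 0.0018), and both calls held in all 22 alternatives. With values divided by the column total these differences were -0.41 and -0.25, where the median over all genes was 0.25 and 0.26. The difference of KI_Chd7del from KI was 0.14 (SE 0.09, adjusted p = 0.261). Per kilobase, Spred1 over Spred2 was 1.00, 1.10 and 0.921 in KI_Chd7del, 1.52, 1.16 and 1.53 in KI, and 0.671, 0.581 and 0.601 in WT. Spred2 was thus the more abundant Spred transcript in WT and Spred1 in KI.

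Nf1 (ENSMUSG00000020716, chromosome 11, 79339693 to 79581612), the RAS GTPase-activating protein gene, had the smallest difference of the 9 in KI against WT. It had 1003, 859 and 840 in KI_Chd7del, 983, 1051 and 999 in KI, and 957, 917 and 988 in WT, so that the groups overlapped in each comparison. KI differed from WT by 0.08 on the log2 scale (SE 0.08, adjusted p = 0.378), with a 95% interval of -0.09 to 0.26. The difference of KI_Chd7del from KI was -0.17 (SE 0.08, adjusted p = 0.108, interval -0.35 to 0.00), and that from WT was -0.09 (SE 0.08, adjusted p = 0.383, interval -0.26 to 0.09). The first of these passed without KI_Chd7del library 1 (-0.25, adjusted p = 0.0149, range 0.0149 to 0.38). Scaled to the column total, KI against WT moved to 0.31 and passed (adjusted p = 0.00761, range 0.00761 to 0.759), while the median of all genes moved from 0.02 to 0.25. With quantile normalisation its sign turned to -0.03. Evi2a, Evi2b, Evi2 and Omg lie inside Nf1 on the other strand and share 0 exonic bases with it.

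Among the 3 phosphatase members, Dusp6 (ENSMUSG00000019960, chromosome 10, 99263231 to 99267489), the cytoplasmic ERK phosphatase MKP-3, had the highest level per kilobase. Its normalised values were 1000, 1277 and 1592 in KI_Chd7del, 729, 752 and 709 in KI, and 1457, 2055 and 2045 in WT. The KI libraries were lowest and close together, with a coefficient of variation of 2.95% against 23% in KI_Chd7del and 18.5% in WT. KI_Chd7del library 3 lay above WT library 1. Dusp6 fell in KI against WT (log2 -1.32, SE 0.18, adjusted p = 0.000169) and rose in KI_Chd7del against KI (0.79, SE 0.18, adjusted p = 0.00709), and both calls held in all 22 alternatives. In KI_Chd7del against WT it fell by 0.53 on the log2 scale (SE 0.18, adjusted p = 0.0325). This last call was lost in 9 of 22 alternatives (0.00967 to 0.174), among them those without KI_Chd7del library 1 (0.0929) or 2 (0.0713) and without WT library 2 (0.111) or 3 (0.11), and was -0.28 scaled to the column total (0.174).

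Dusp5 (ENSMUSG00000034765, chromosome 19, 53529109 to 53542431), a nuclear phosphatase selective for ERK, had 209, 255 and 312 in KI_Chd7del, 160, 224 and 201 in KI, and 117, 137 and 141 in WT. All libraries with the fusion allele were above WT, and KI_Chd7del and KI overlapped. Dusp5 rose in KI_Chd7del against WT (log2 0.95, SE 0.18, adjusted p = 0.00241), a call that held in all 22 alternatives. It also rose in KI against WT (0.55, SE 0.18, adjusted p = 0.0263). It was no longer called without KI library 2 (0.0861) or 3 (0.0737), without WT library 1 (0.0851) or 2 (0.0509), and with quantile normalisation (0.27, adjusted p = 0.234), over a range of 0.00482 to 0.234. The difference of KI_Chd7del from KI was 0.40 (SE 0.18, adjusted p = 0.109), which passed without KI_Chd7del library 1 (0.0429, range 0.0429 to 0.321). An antisense annotation, AC137853.2, shares 547 exonic bases with Dusp5 and was not analysed here, so its reads may be included.

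Dusp4 (ENSMUSG00000031530, chromosome 8, 34807297 to 34819894), the nuclear phosphatase MKP-2, was low throughout. It had 36, 50 and 55 in KI_Chd7del, 23, 38 and 44 in KI, and 26, 15 and 13 in WT, where KI library 1 lay below WT library 1. Dusp4 rose in KI_Chd7del against WT (log2 1.38, or 0.90 with a pseudocount of 16, SE 0.34, adjusted p = 0.00868), in all 21 alternatives that tested it. It rose in KI against WT by 0.93 (SE 0.34, adjusted p = 0.039), a value that was 0.58 with a pseudocount of 16. This call was lost in 9 of 21 alternatives (0.0148 to 0.13). They included the fits without KI library 2 (0.0992) or 3 (0.13), KI_Chd7del library 2 (0.0535) and WT library 2 (0.107) or 3 (0.126). The difference of KI_Chd7del from KI was 0.44 (SE 0.34, adjusted p = 0.322).

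Dusp5 and Dusp6 differed in their ratio between the groups. Per kilobase, Dusp5 over Dusp6 was 0.265, 0.253 and 0.248 in KI_Chd7del, 0.278, 0.377 and 0.359 in KI, and 0.102, 0.0844 and 0.0873 in WT. The 3 groups did not overlap. Dusp6 made up 76.6% to 77.7% of the summed level of the 3 phosphatase genes in KI_Chd7del, 69.7% to 76.1% in KI and 89.1% to 91.5% in WT. The promoters of Dusp5 and Dusp6 are shown for this contrast, from RefSeq (GRCm38.p6), at chr19:53528895-53529108 and chr10:99262981-99263230, both on the plus strand. That of Dusp5 ends 36 bases before the RefSeq start, where the gene begins in GENCODE M21. Capitals mark GGGCGG and CCAAT as above and, in Dusp5, 2 CArG boxes, the site bound by serum response factor, which lie side by side without overlap.
Dusp5: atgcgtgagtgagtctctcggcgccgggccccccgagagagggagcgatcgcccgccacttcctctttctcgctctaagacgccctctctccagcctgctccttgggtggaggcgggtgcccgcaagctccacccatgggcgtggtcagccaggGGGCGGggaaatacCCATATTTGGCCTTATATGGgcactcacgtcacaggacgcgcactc
Dusp6: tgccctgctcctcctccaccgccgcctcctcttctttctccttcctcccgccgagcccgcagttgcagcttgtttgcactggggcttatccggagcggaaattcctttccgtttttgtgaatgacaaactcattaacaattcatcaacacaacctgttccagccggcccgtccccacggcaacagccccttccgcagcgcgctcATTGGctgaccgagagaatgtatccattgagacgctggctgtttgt
The CArG boxes began 82 and 72 bases before the RefSeq start of Dusp5, and 1.47% of 32851 promoters held at least 1. None was found in the other 6 promoters at hand (Spry1, Spry2, Spred1, Spred2, Dusp6 and Nf1). TGTGGT, the core of the site bound by RUNX proteins, the partners of CBFB, occurred in none of the 7, beside 14% of all promoters. CCGGAAG, an ETS site, occurred once, in Nf1, beside 6.91% of all, and TGACGTCA, the cAMP response element, in none, beside 1.55%. All motifs were searched on both strands. An absent motif says only that these letters are not in this window.

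**Figure D3:**
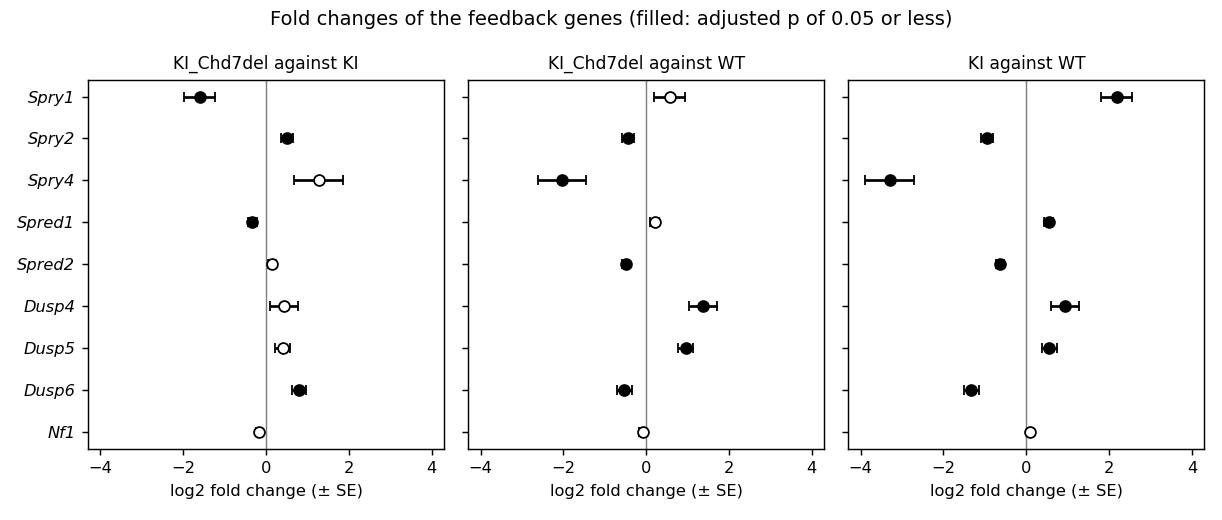
Log2 fold change ± SE (x axis, on the log2(value + 1) scale) of each feedback gene in KI_Chd7del against KI, KI_Chd7del against WT and KI against WT. Filled points passed an adjusted p of 0.05 in limma. Spry1, Spry2, Spred1 and Dusp6 are filled in the first and the last panel, which share the KI libraries, and Nf1 is filled in none.

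Levels of different genes were compared per kilobase of exon. In WT, Dusp6 was highest at 591 ± 109 normalised reads per kilobase (SD, n = 3), followed by Spred2 at 283 ± 18.4. Spry2 (184 ± 8.52) and Spred1 (174 ± 3.21) overlapped, as did Spry4 (8.83 ± 3.11) and Dusp4 (6.57 ± 2.56) at the low end. Nf1 (60.2 ± 2.25), Dusp5 (53.2 ± 5.20) and Spry1 (15.5 ± 1.72) lay in between. In KI the order at the top was changed, with Spred1 (255 ± 39.6) and Dusp6 (233 ± 6.87) overlapping. Spry2 (96.2 ± 19.2), Dusp5 (78.9 ± 13.1), Spry1 (73.1 ± 21.8) and Nf1 (63.8 ± 2.24) formed a chain in KI in which each overlapped the next. In KI_Chd7del, Dusp6 was again highest (412 ± 94.6), Spred1 (201 ± 14.1) and Spred2 (201 ± 23.7) overlapped, and Spry4 was lowest (2.45 ± 2.27).

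The pattern of other genes was set beside the 3 members with the widest span of group means of log2(value + 1), which were Spry4 (3.30), Spry1 (2.18) and Dusp4 (1.38). Dusp6 followed closely (1.32), and the place of Dusp4 before it depends on the scale. So does the first place of Spry4. With a pseudocount of 16, KI against WT was -1.55 for Spry4 and 1.87 for Spry1. Spry4 had 2, 3 and 5 in KI, so counting limits its likeness to other genes. Likeness is the root mean square difference of centred log2(value + 1) over the 9 libraries. Fcer2a, the low-affinity IgE receptor gene, came nearest to Spry4 (0.378), followed by Ncr1, an activating receptor of natural killer cells (0.516), and Trim2 (0.565). Fcer2a had 24, 37 and 62 in KI_Chd7del, 13, 14 and 27 in KI, and 159, 190 and 166 in WT. Nearest to Spry1 were Fhdc1 (0.316), Sytl2 (0.333) and Fbxo44 (0.335). Fhdc1 had 344, 493 and 390 in KI_Chd7del, 1313, 1082 and 1795 in KI, and 271, 223 and 233 in WT. Nearest to Dusp4 were Armcx4 (0.204), the carbonic anhydrase gene Car12 (0.214) and Amot, the angiomotin gene (0.229).

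The cascade above and below these genes was read from 9 lists of 98 other pathway genes, of which 92 were tested. In KI against WT, 39 rose and 28 fell of 92, where 31.8% of all tested genes rose and 27.2% fell. In KI_Chd7del against KI, 19 rose and 30 fell, where 17.5% of all rose and 22.9% fell. The counts of the single lists below are to be read against these shares. Kit was at 6131, 7732 and 8508 in KI_Chd7del, 3868, 3226 and 3521 in KI, and 7362, 7354 and 7797 in WT. It thus fell in KI against WT (log2 -1.09, SE 0.11, adjusted p = 3.88e-05) and rose in KI_Chd7del against KI (1.07, SE 0.11, adjusted p = 0.000212). Of the 12 receptors and ligands tested, 7 rose and 4 fell in KI against WT, and 5 rose and 5 fell in KI_Chd7del against KI. Csf1r and Csf2rb rose in KI against WT (2.68 and 2.35, adjusted p = 5.38e-07 and 1.94e-06) and fell in KI_Chd7del against KI (-1.13 and -1.79, adjusted p = 0.000297 and 6.1e-05). Csf1r, the receptor of macrophage colony-stimulating factor, averaged 12738 ± 1633 in KI_Chd7del, 27822 ± 3910 in KI and 4320 ± 459 in WT (SD, n = 3 each). Csf2rb, the shared beta chain of the IL-3, IL-5 and GM-CSF receptors, averaged 13387 ± 1844 in KI_Chd7del, 46772 ± 9475 in KI and 9040 ± 402 in WT. Fgfr1, a fibroblast growth factor receptor, rose by 4.69 in KI against WT (adjusted p = 6.08e-06).

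Among 12 adaptors and exchange factors, 6 rose and 5 fell in KI against WT, and 1 rose and 5 fell in KI_Chd7del against KI. Gab2, a docking protein of KIT and cytokine receptors, averaged 3346 ± 975 in KI_Chd7del, 8003 ± 1053 in KI and 1409 ± 52.4 in WT (log2 -1.29 and 2.50 for KI_Chd7del against KI and KI against WT, adjusted p = 0.000762 and 4.3e-06). Rasgrp1, a RAS exchange factor, fell by 2.05 in KI_Chd7del against KI (adjusted p = 0.000322). Of 8 RAS and RAP GTPases, 3 rose and 3 fell in KI against WT, and 1 rose and 6 fell in KI_Chd7del against KI. The RAS relatives Mras and Rras rose by 2.96 and 2.41 in KI against WT (adjusted p = 7.42e-06 and 2.9e-06) and fell by 2.12 and 1.67 in KI_Chd7del against KI (0.000247 and 0.00013). Hras fell in KI against WT by 0.46 (adjusted p = 0.000323).

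Of 12 core kinases and scaffolds tested, 2 rose and 7 fell in KI against WT, and 1 rose and 3 fell in KI_Chd7del against KI. Mapk3, the gene of ERK1, averaged 7448 ± 418 in KI_Chd7del, 6193 ± 533 in KI and 13420 ± 1336 in WT (KI against WT log2 -1.11, SE 0.09, adjusted p = 7.63e-06). Rps6ka1, an ERK-activated ribosomal S6 kinase, fell by 1.07 and Map2k1, the gene of MEK1, by 0.42 (adjusted p = 1.19e-05 and 1e-04). Of 9 other RAS GTPase-activating proteins, 6 rose and 2 fell in KI against WT. Rasa3 rose by 1.13 and Rasa4 by 1.77, whereas Dab2ip fell by 1.63 (adjusted p of these 3 from 4.59e-07 to 1.9e-05). In KI_Chd7del against KI, 2 of these 9 rose and 2 fell, with Dab2ip up by 1.04 (adjusted p = 0.000962).

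**Figure D4:**
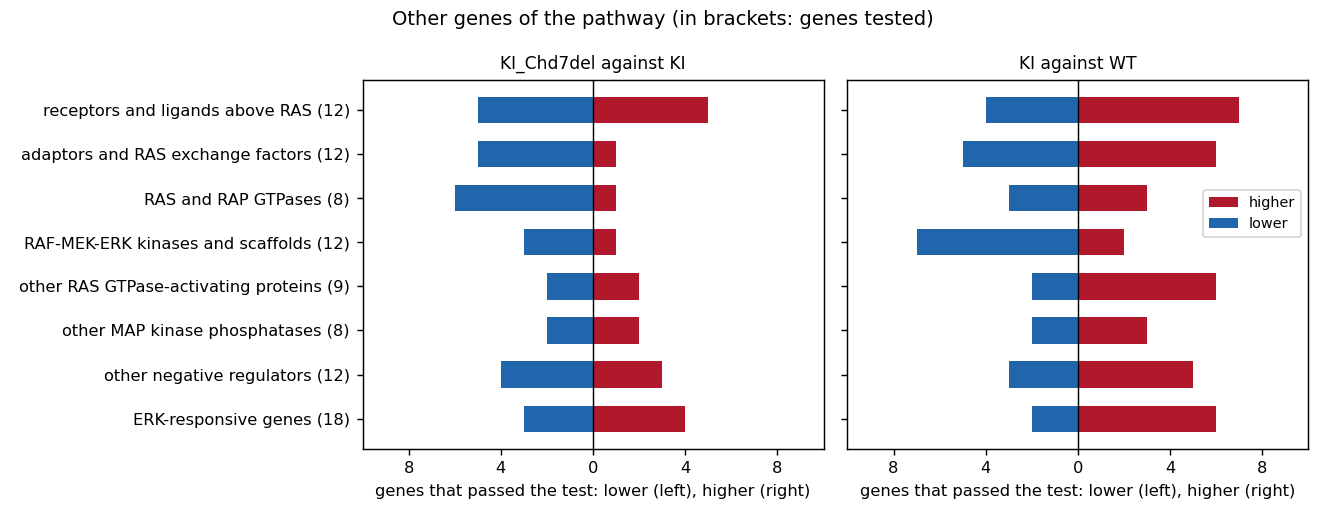
Number of genes of each pathway list that passed an adjusted p of 0.05 in limma, higher to the right of 0 and lower to the left, in KI_Chd7del against KI and in KI against WT. Numbers in brackets are the genes tested. The kinase list has 7 lower and 2 higher genes of 12 in KI against WT, where 27.2% of all tested genes were lower, and the list of RAS and RAP GTPases has 6 lower and 1 higher of 8 in KI_Chd7del against KI, where 22.9% of all were lower.

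Relatives of the feedback genes also split. Spred3, another Spred gene, had 38, 43 and 45 in KI_Chd7del, 68, 54 and 83 in KI, and 15, 12 and 8 in WT, and rose in KI against WT (log2 2.47, adjusted p = 4.83e-05). Of 8 other MAP kinase phosphatases, 3 rose and 2 fell in KI against WT, and 2 rose and 2 fell in KI_Chd7del against KI. Dusp3, the gene of the small phosphatase VHR, averaged 419 ± 3.51 in KI_Chd7del, 1877 ± 334 in KI and 162 ± 17 in WT (KI against WT log2 3.52, adjusted p = 2.12e-07). Dusp10, whose product acts on the stress kinases p38 and JNK, rose by 1.38 in KI against WT and fell by 1.28 in KI_Chd7del against KI (adjusted p = 0.000334 and 0.00153). Dusp7, which encodes another cytoplasmic ERK phosphatase, averaged 1169 in KI_Chd7del, 1096 in KI and 634 in WT. It rose in KI against WT (0.79, adjusted p = 6.56e-05), opposite to Dusp6, and its difference of 0.10 in KI_Chd7del against KI did not pass (adjusted p = 0.418). Dusp2, a nuclear ERK phosphatase of leukocytes, rose by 1.18 in KI_Chd7del against KI (adjusted p = 0.000472). Of 12 other negative regulators tested, 5 rose and 3 fell in KI against WT, and 3 rose and 4 fell in KI_Chd7del against KI. Errfi1, an inhibitor of EGF receptor family kinases, rose by 2.45 and fell by 1.64 in these comparisons (adjusted p = 1.24e-05 and 0.00055). Pea15a, whose product holds ERK in the cytoplasm, rose by 1.52 and fell by 0.60 (1.94e-06 and 0.00136).

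ERK-responsive genes outside the feedback set gave 6 higher and 2 lower of 18 tested in KI against WT, and 4 higher and 3 lower in KI_Chd7del against KI. Etv1, an ETS factor, averaged 80.7 ± 28.6 in KI_Chd7del, 268 ± 47.4 in KI and 4.67 ± 1.15 in WT (KI against WT log2 5.57, adjusted p = 8.02e-07). Epha4, an ephrin receptor, rose by 2.54 in KI against WT and fell by 1.98 in KI_Chd7del against KI (adjusted p = 0.000127 and 0.00169). Etv5 and Ccnd1, often used as ERK readouts and picked here after their values were seen, did not pass in either comparison. Etv5 differed by 0.07 in KI against WT and -0.53 in KI_Chd7del against KI (adjusted p = 0.814 and 0.107), and Ccnd1 by 0.09 and 0.25 (0.703 and 0.303).

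Immediate early genes respond within minutes to ERK and to cell handling, and some of them varied widely within KI_Chd7del and WT. The coefficient of variation of Dusp1 was 66.4% in KI_Chd7del, 18.4% in KI and 78.2% in WT. That of Ier2, another early gene, was 10.3%, 1.35% and 17%. Dusp1 had 835, 3345 and 1620 in KI_Chd7del, 369, 270 and 274 in KI, and 395, 1156 and 2464 in WT. Dusp1 fell in KI against WT (-1.79, adjusted p = 0.0387) and rose in KI_Chd7del against KI (2.45, adjusted p = 0.0156). Fos, chosen after its values were seen, had 2721, 10376 and 4040 in KI_Chd7del, 1232, 1054 and 842 in KI, and 420, 2910 and 6247 in WT. WT library 1 was lowest in WT for Dusp1, Fos and Dusp6, and KI_Chd7del library 1 was lowest in its group for all 3. That KI_Chd7del library was also lowest in its group for Kit (6131) and for every other feedback gene except Nf1, for which it was highest. In KI_Chd7del, however, Dusp1 and Fos were highest in library 2 and Dusp6 in library 3. Among the other feedback genes, WT library 1 was lowest for Spred2 (1210) and Dusp5 (117). It was highest for Spry1 (50) and Dusp4 (26) and in the middle for the rest. The level per kilobase of exon summed over the 9 feedback genes was 991, 1149 and 1329 in KI_Chd7del libraries 1 to 3. The part of early gene induction in the differences of the feedback genes was not tested.

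**Figure D5:**
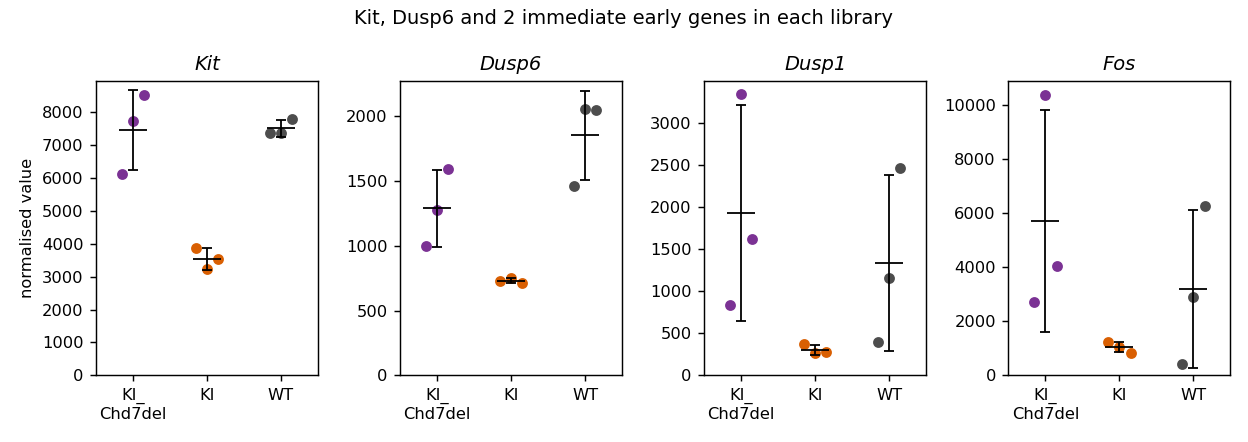
Normalised value (y axis, from 0) of Kit, Dusp6, Dusp1 and Fos in each library of KI_Chd7del, KI and WT. Points are libraries 1 to 3 from left to right, and black marks are the mean ± SD of 3 libraries. KI is lowest for Kit, Dusp6 and Dusp1 in all libraries, whereas KI and WT overlap for Fos. Dusp1 and Fos range in WT from 395 to 2464 and from 420 to 6247.

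Markers of cell types in the marrow differed between the groups to unlike degrees. Beside them, 31.8% of all tested genes rose and 27.2% fell in KI against WT. In KI_Chd7del against KI these shares were 17.5% and 22.9%. The marker counts below are to be read against these shares. All 12 late neutrophil markers fell in KI against WT and all 12 rose in KI_Chd7del against KI. Their sum was 1367149 to 1761889 in KI_Chd7del, 166797 to 763260 in KI and 4508088 to 5627970 in WT. Of 10 monocyte and macrophage markers, 9 rose and 1 fell in KI against WT, and 2 rose and 8 fell in KI_Chd7del against KI, with sums of 100807 to 112175 in KI_Chd7del, 210391 to 237225 in KI and 37304 to 38888 in WT. Of 10 mast cell and basophil markers, 7 rose and 3 fell in KI against WT, and 3 rose and 6 fell in KI_Chd7del against KI. Their sums were 55106 to 74342 in KI_Chd7del, 109080 to 167863 in KI and 25923 to 28353 in WT, where Mcpt1 was at 0 in WT library 3. Of 8 stem and progenitor markers, 5 rose and 1 fell in KI against WT, and 6 rose and 2 fell in KI_Chd7del against KI. Of 7 B cell markers, 1 rose and 0 fell in KI against WT, and 6 rose and 0 fell in KI_Chd7del against KI. Of 8 erythroid markers, 2 rose and 4 fell in KI against WT, and 1 rose and 6 fell in KI_Chd7del against KI. Of 6 megakaryocyte markers, 2 rose and 4 fell in KI against WT, and 4 rose and 1 fell in KI_Chd7del against KI. Of 6 eosinophil markers, 1 rose and 3 fell in KI against WT, and 3 rose and 1 fell in KI_Chd7del against KI, and Ear6 was at 0 in KI libraries 2 and 3. The part of these cell types in the differences of the feedback genes was not tested.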

How the data were processed

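The deposited table holds whole numbers, treated here as a score: scaled by the authors with a factor for each library and then rounded, as its low values show (no gene had a value of 3 in WT library 3, while 1035 had 2 and 647 had 4), so a value of 1 is close to 1 read. Read depth per library is not given in the sources used here. The submitters' processing notes name CASAVA 1.8.2, STAR 2.4, RSEM, DESeq2 and GRCm38, without roles. Symbols, positions and exon lengths came from GENCODE M21 (GRCm38), with a symbol for 42462 of 43629 identifiers.

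Since the values are normalised, no count test was run. limma 3.58.1 in R 4.3.3, with a mean-variance trend, was fitted to log2(value + 1) of the 9 libraries without a replicate block, for the 15997 genes that reached 10 in 3 or more libraries. P-values are 2-sided, adjusted by Benjamini-Hochberg over all tested genes, with a threshold of 0.05. Fold changes on this scale understate those of low genes. The members and gene lists were chosen with earlier results of these data known. Named pathway genes are those with the smallest adjusted p of each list (up to 4 per comparison), and likeness was computed over genes with a mean of at least 50. Alternatives were other filters, scalings, pseudocounts and fits, a replicate block, and each library left out in turn. Scaling without the late neutrophil genes was chosen after seeing the data. Flt3l and Spry3 were not analysed here. Tables and figures used Python 3.11.15 with pandas 2.3.3, numpy 2.4.6 and matplotlib 3.10.9.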

Additional observations from a re-analysis of the deposited data

How the results depend on the processing

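The number of feedback genes called in KI against WT (8) stayed between 6 and 9 over 22 alternatives. In KI_Chd7del against KI (4) it was 2 in a fit of only these groups and 2 to 6 when each library was left out in turn, and in KI_Chd7del against WT (6) it was 3 to 7 when each library was left out. Counts over all genes stayed within 1.5 times of 9429, 6464 and 7735. Nf1 changed sign in KI against WT with quantile normalisation (-0.0292), and in KI_Chd7del against WT when scaled to the column total (0.16) or to the total without late neutrophil genes (0.0401), where the median of all genes was 0.26 and 0.15. The cause of other lost calls was not tested. Higher genes made up 53.9%, 43.4% and 49.7% of all calls in KI against WT, KI_Chd7del against KI and KI_Chd7del against WT. Scaled to the column total, these shares were 74.2% in the first and 78.7% in the third. In the second the share was 57.4% with upper-quartile factors, 57% with quantile normalisation and 53.6% with the total without late neutrophil genes, which gave 66.7% in the third.

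No pairing by replicate number was seen. Deviations from group means of same-numbered libraries correlated at -0.15 to 0.11 across genes, and those of differently numbered libraries at -0.17 to 0.21. These values cannot show whether same-numbered libraries were handled together. With the replicate number as a block, 9121, 5952 and 7411 genes and 7, 3 and 6 feedback genes were called in these comparisons, without Dusp4 in the first and Spred1 in the second.

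Spry4 and Dusp4 had no value with the filter on a mean of at least 50. The low values of these 2 genes are limited by counting.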

Other observations

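Beside Kit, chosen for this after the values were seen, the feedback genes differed in their ratios. Dusp6 over Kit, as a ratio of normalised values within a library, was 0.163, 0.165 and 0.187 in KI_Chd7del, 0.188, 0.233 and 0.201 in KI, and 0.198, 0.279 and 0.262 in WT, so that KI and WT overlapped although both genes differed by more than their spread. Spry2 over Kit was 0.0437, 0.0353 and 0.0366 in KI_Chd7del, 0.0491, 0.0759 and 0.0474 in KI, and 0.0531, 0.0538 and 0.0466 in WT, again with KI and WT overlapping. In both ratios each KI_Chd7del library was below all libraries of KI and WT, although for Dusp6 the nearest were 0.187 and 0.188. Spred1 over Kit was 0.205, 0.183 and 0.167 in KI_Chd7del, 0.506, 0.445 and 0.513 in KI, and 0.162, 0.157 and 0.154 in WT. Dusp5 over Kit was 0.0341, 0.033 and 0.0367 in KI_Chd7del, 0.0414, 0.0694 and 0.0571 in KI, and 0.0159, 0.0186 and 0.0181 in WT. For Spred1 and Dusp5, none of the 3 groups overlapped in this ratio. Nf1 over Kit was 0.164, 0.111 and 0.0987 in KI_Chd7del, 0.254, 0.326 and 0.284 in KI, and 0.13, 0.125 and 0.127 in WT, so KI and WT were apart there too although Nf1 itself did not pass the test, and the level of Kit alone sets part of such a gap. Spred2 over Kit was 0.139, 0.113 and 0.124 in KI_Chd7del, 0.227, 0.26 and 0.229 in KI, and 0.164, 0.185 and 0.174 in WT, higher in KI although Spred2 fell in KI against WT. Spry4 over Kit was below every WT library in all 6 libraries with the fusion allele, at 0.000652, 0.000905 and 0.00282 in KI_Chd7del and 0.000517, 0.00093 and 0.00142 in KI, against 0.00666, 0.00707 and 0.00321 in WT. Spry1 over Kit was 0.00571, 0.0129 and 0.0101 in KI_Chd7del, 0.0499, 0.0499 and 0.0804 in KI, and 0.00679, 0.00612 and 0.00513 in WT. Dusp4 over Kit was 0.00587, 0.00647 and 0.00646 in KI_Chd7del, 0.00595, 0.0118 and 0.0125 in KI, and 0.00353, 0.00204 and 0.00167 in WT.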
